A study of Owenia fusiformis with 14 samples.

Results

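The response of *Owenia fusiformis* blastulae to recombinant zebrafish BMP4 (rBMP4) was examined in 4 of the 14 bulk RNA-seq libraries of the series, the 2 labelled BMP and the 2 labelled Mock. *O. fusiformis* is an annelid worm with equal spiral cleavage, and each library holds polyA RNA of whole embryos raised in artificial seawater and collected at 6 h post fertilisation (hpf). The rBMP4 embryos were exposed to the protein from 4 to 6 hpf at a dose the labels give as 1000 ng/µl, and mock embryos received the solvent of the protein over the same hours. The other 10 libraries, also 2 per condition, come from embryos treated with recombinant Activin A (rActivin A, 75 ng/µl, 4 to 6 hpf, with the same mock control), with the BMP receptor inhibitor DMH1 (20 µM, 4 to 6 hpf) and its 0.2% DMSO control, and with the Activin/Nodal receptor inhibitor SB431542 (40 µM, 3 to 6 hpf) and its 0.4% DMSO control. The sample titles spell this inhibitor SB435421, and the treatment protocol spells it SB431542. The unit of the rBMP4 and rActivin A doses is ng/ml in the tables in which the study scored larvae, and the difference could not be settled from the labels. No label says that the 2 libraries of a condition came from separate batches of embryos. The p-values therefore measure the spread between libraries of a condition, pooled over the conditions of each fit, and this spread may be technical.

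BMP ligands such as BMP2/4 and BMP5-8 are secreted proteins that bind a complex of type I and type II receptors (BMPR1 and BMPR2), which phosphorylates the transcription factor SMAD1/5/8. Chordin binds BMP ligands outside the cell and keeps them from their receptors. In many bilaterian embryos this ligand and antagonist pair sets up a graded SMAD1/5/8 activity along the dorsoventral axis, and the comparison of rBMP4 with mock asks which genes follow when the pathway is overactivated during axial patterning. Of the genes measured here, 6 could be paired with names, all of them core components of this pathway. The other genes are given by the identifiers of the files, none of which matched the reference gene table used here.

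The libraries held 17514942 and 22588768 estimated counts after rBMP4, against 26134978 and 23024586 in mock embryos, and between 9416563 and 59915591 in the other 10. Levels are given as CPM (counts scaled to a common library size) after TMM scaling over all 14 libraries, a scale that does not correct for transcript length, so it serves to compare libraries and not genes. The 0.2% DMSO replicates disagreed with each other. Of the 60 genes higher after rBMP4 that reached 5 CPM in at least 1 of them, 8 were at least 4-fold higher in replicate 1 and 0 in replicate 2, and over all genes tested 0.969% differed by that much. The same share was 0.00858% between the rBMP4 replicates and 0.0171% between the mock replicates.

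rBMP4 changed 304 genes, 1.49% of the 20463 tested among the 27040 measured. Of these genes, 169 were higher (0.826% of those tested) and 135 lower (0.66%). Which direction held more genes turned with the fold minimum, as 228 were higher and 263 lower at a minimum of 0.5 on the log2 scale, and 246 higher and 294 lower with none. The median fold of the 169 higher genes was 3.86, with quartiles of 2.60 and 6.24, against 2.90, with quartiles of 2.32 and 4.36, for the 135 lower genes. At least 4-fold changes were found for 77 higher and 39 lower genes, at least 8-fold changes for 29 and 11, and at least 16-fold changes for 12 and 4. A gene was called at an adjusted p below 0.05 in the quasi-likelihood test of edgeR, with Benjamini-Hochberg adjustment over all genes, if it also changed by 1 or more on the log2 scale. The rBMP4 and mock libraries did not overlap for any of the 304 genes, a pattern that 39.6% of all genes tested showed. Of the 304 calls, 168 held when each of the 4 libraries was left out in turn, 93 of the higher and 75 of the lower genes. The count was 188 when TPM values were summed in place of counts.

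**Figure D1:**
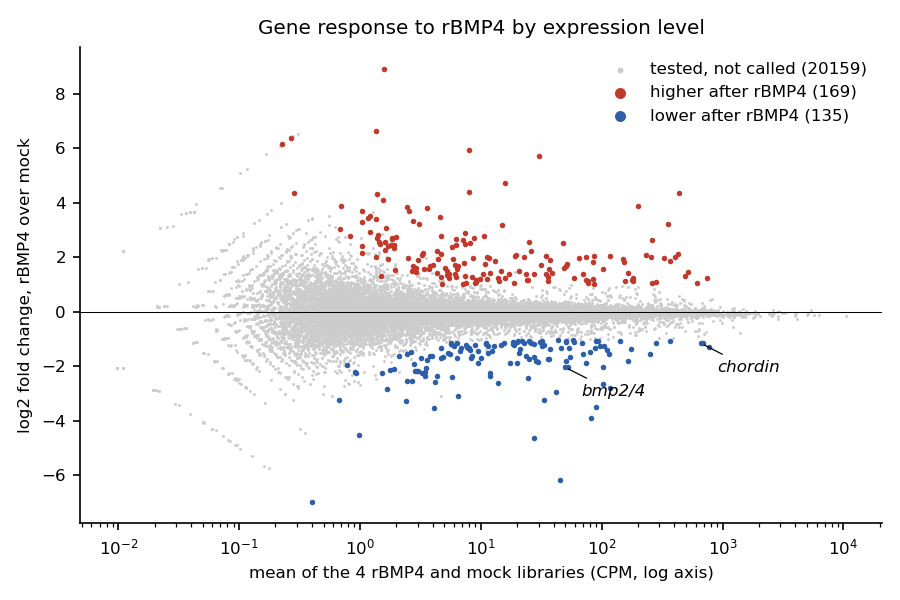
Each point is a gene, with the mean CPM of the 4 rBMP4 and mock libraries on the horizontal log axis and the log2 fold change of rBMP4 over mock on the vertical axis. The 169 higher genes are red, the 135 lower genes blue and the genes not called grey; the largest changes at low levels rest on few counts.

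The higher genes had a median of 12.6 CPM after rBMP4 and 3.21 CPM in mock, and the lower genes 7.43 CPM after rBMP4 and 25.3 CPM in mock, an order within each group that follows from the choice of the genes on these libraries. Over the mean of the 4 libraries the medians were 7.93 CPM for the higher and 17.5 CPM for the lower genes, against 8.22 CPM over all genes tested. An rBMP4 mean below 1 CPM was found for 3 higher and 14 lower genes. A mock mean below 1 CPM was found for 45 of the 169 higher genes (26.6%) and 1 of the 135 lower genes (0.741%), against 23.6% of all genes tested. The low share among lower genes also follows from that choice, since a gene with few counts in mock can hardly be called lower. The share of genes called ran from 0.25% below 1 CPM to 2.3% between 1 and 10 CPM, 1.51% between 10 and 100 CPM and 1.91% at 100 CPM or more. Calls at low levels were the least stable, since 0 of the 12 called genes below 1 CPM and 38 of the 138 between 1 and 10 CPM held without each of the 4 libraries, against 95 of 114 between 10 and 100 CPM and 35 of 40 above. The longest transcript of a higher gene had a median length of 1981 bases and that of a lower gene 2213 bases, against 1827 bases over all genes tested.

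Among the named pathway genes, the ligand gene *bmp2/4* and the antagonist gene *chordin* fell after rBMP4. *bmp2/4* had 21.9 and 17.0 CPM in rBMP4 embryos, against 79.6 and 78.8 CPM in mock embryos, a log2 fold change of -2.02 (SE 0.12, edgeR adjusted p = 5.65e-09). Mock embryos did not stand apart for this gene, because the 4 DMSO libraries ranged from 76.8 to 82.6 CPM. The rBMP4 level was the lowest of the 7 conditions, below rActivin A with 31.2 and 32.0 CPM, while DMH1 and SB431542 embryos had between 96.1 and 106 CPM. The gene was not called for either inhibitor against its DMSO control (log2 fold change 0.31 for DMH1 and 0.41 for SB431542, edgeR adjusted p = 0.114 and 0.118). *chordin* had 434 and 385 CPM after rBMP4, against 913 and 906 CPM in mock, a log2 fold change of -1.15 (SE 0.09, edgeR adjusted p = 1.04e-07). For *chordin* the mock libraries were the highest of all 14, as the 4 DMSO libraries lay between 452 and 568 CPM and the rActivin A libraries had 228 and 214 CPM.

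The receptor gene *bmpr2* had 104 and 91.4 CPM after rBMP4, against 62.6 and 63.0 CPM in mock. Its log2 fold change of 0.64 (SE 0.10, edgeR adjusted p = 8.58e-04) passed the test but stayed under the fold minimum. rActivin A embryos had 83.8 and 88.2 CPM of *bmpr2* (log2 fold change over mock 0.46, edgeR adjusted p = 1.98e-03). The gene was not called between rBMP4 and rActivin A (edgeR adjusted p = 0.187). *bmpr2* was lower after DMH1, with 38.1 and 37.0 CPM against 54.2 and 52.9 CPM in 0.2% DMSO (log2 fold change -0.53, edgeR adjusted p = 0.0341). That comparison had a fold minimum of 0.5 on the log2 scale. The 0.4% DMSO libraries, at 40.98 and 40.30 CPM, lay nearer to DMH1 than to 0.2% DMSO. The signal transducer gene *smad1/5/8* had 555 and 531 CPM after rBMP4 and 428 and 404 CPM in mock (log2 fold change 0.39, edgeR adjusted p = 0.0268), and its adjusted p reached 0.307 without mock replicate 2. The ligand gene *bmp5-8* had 170 and 156 CPM, against 155 and 137 CPM in mock (edgeR adjusted p = 0.793). The type I receptor gene *bmpr1* had 141 and 162 CPM, against 132 and 165 CPM in mock, so that its groups overlapped (edgeR adjusted p = 1). Of the 6 pathway genes, 2 were therefore called lower and 0 higher.

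OFUSG18388 was among the 10 largest increases and the only one of them above 100 CPM. It had 855 and 801 CPM after rBMP4, against 39.6 and 41.8 CPM in mock (log2 fold change 4.35, SE 0.11, edgeR adjusted p = 8.85e-14). None of the other 10 libraries exceeded 27.3 CPM, and the 4 DMSO libraries held between 5.35 and 12.6 CPM. OFUSG00637 had 68.9 and 50.5 CPM after rBMP4, against 1.52 and 0.70 CPM in mock (log2 fold change 5.72, SE 0.28, edgeR adjusted p = 3.83e-10). It stayed at or below 3.71 CPM in the other 10 libraries. OFUSG11793 had 28.7 and 32.0 CPM after rBMP4, against 1.40 and 0.88 CPM in mock, and at most 0.77 CPM elsewhere (log2 fold change 4.72, SE 0.27, edgeR adjusted p = 2.51e-09). OFUSG04918 had 16.4 and 14.8 CPM, against 0.31 and 0.18 CPM in mock (log2 fold change 5.95, SE 0.54, edgeR adjusted p = 1.19e-06). OFUSG00637, OFUSG11793 and OFUSG04918 thus stayed under 4 CPM in every library other than those of rBMP4.

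OFUSG10748 was high under both recombinant proteins. It had 15.1 and 15.2 CPM after rBMP4 and 19.8 and 12.2 CPM after rActivin A, against 0.86 and 0.57 CPM in mock (log2 fold change of rBMP4 over mock 4.39, SE 0.33, edgeR adjusted p = 1.01e-07). The 8 inhibitor and DMSO libraries held at most 1.32 CPM. The remaining 5 of the 10 largest fitted increases had no more than 1 count over both mock libraries. OFUSG02649 had 40 and 92 counts after rBMP4 and 0 in mock and in each of the other 10 libraries, at least 52.8-fold higher against a floor of 3 counts over the mock group, a floor that covers counting error only. DESeq2 did not call it (adjusted p = 0.801), and edgeR did not without rBMP4 replicate 2 (adjusted p = 0.0512). OFUSG02324 had 48 and 60 counts against 0 and 1, a ratio of 129 with an exact 95% counting interval of 22.8 to 5161. OFUSG07650, OFUSG15009 and OFUSG12659 had only 5 to 14 counts in each rBMP4 library. Their calls were lost in 10 of 16, 10 of 16 and 12 of 17 alternatives.

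The 3 higher genes with the highest mean CPM, a rank that also depends on transcript length, were OFUSG12458, OFUSG12638 and OFUSG13380. OFUSG12458 had 1081 and 990 CPM after rBMP4, against 449 and 437 CPM in mock (log2 fold change 1.23, SE 0.08, edgeR adjusted p = 2.28e-08). OFUSG12638 had 783 and 742 CPM, against 277 and 276 CPM in mock (log2 fold change 1.47, SE 0.09, edgeR adjusted p = 3.31e-09). OFUSG13380 had 835 and 839 CPM, against 356 and 445 CPM in mock (log2 fold change 1.07). Its log2 fold change was 0.90, under the fold minimum, without mock replicate 1.

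Among the lower genes, OFUSG21806 fell to 1.36 and 1.14 CPM after rBMP4, against 87.4 and 90.1 CPM in mock (log2 fold change -6.15, SE 0.25, edgeR adjusted p = 3.55e-11). The 4 DMSO libraries lay in between, at 11.8 to 15.2 CPM. OFUSG01771 had 1.93 and 2.24 CPM after rBMP4, against 55.7 and 49.6 CPM in mock (log2 fold change -4.64, SE 0.30, edgeR adjusted p = 1.64e-08), and 5.35 to 8.83 CPM in the DMSO libraries. OFUSG11740 had 10.1 CPM in both rBMP4 libraries, against 152 CPM in both mock libraries (log2 fold change -3.91, SE 0.31, edgeR adjusted p = 2.59e-07). It had 21.9 to 51.1 CPM in the DMSO libraries. OFUSG09693 had 16.2 and 13.5 CPM after rBMP4, against 168 and 162 CPM in mock (log2 fold change -3.47, SE 0.13, edgeR adjusted p = 1.37e-11), and 51.8 to 68.3 CPM in the DMSO libraries. In these 4 genes rBMP4 was below and mock above all DMSO controls. Over the 135 lower genes, rBMP4 was below all 4 DMSO libraries in 40.7%, against 21.2% of all genes tested. Mock was above them in 80%, against 26% of all genes tested. OFUSG07644 had the largest fitted decrease, with 0 counts after rBMP4 and 19 and 20 in mock. Its call was lost in 11 of 16 alternatives. OFUSG02185 and OFUSG02187, with 1 to 3 counts in each rBMP4 library, lost theirs in 7 of 18 and 6 of 17. OFUSG11338 and OFUSG00597 kept theirs in all 19.

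Of the 3 lower genes with the highest mean CPM, *chordin* was one. OFUSG17445 had 447 and 442 CPM after rBMP4, against 1046 and 1131 CPM in mock (log2 fold change -1.29, SE 0.11, edgeR adjusted p = 7.95e-07). OFUSG18139 had 367 and 503 CPM, against 1292 and 615 CPM in mock. Its log2 fold change of -1.13 (edgeR adjusted p = 7.85e-03) was -0.52 without mock replicate 1 and -0.93 without rBMP4 replicate 1, and the call was lost in both (edgeR adjusted p = 0.270 and 0.145) and with DESeq2.

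**Figure D2:**
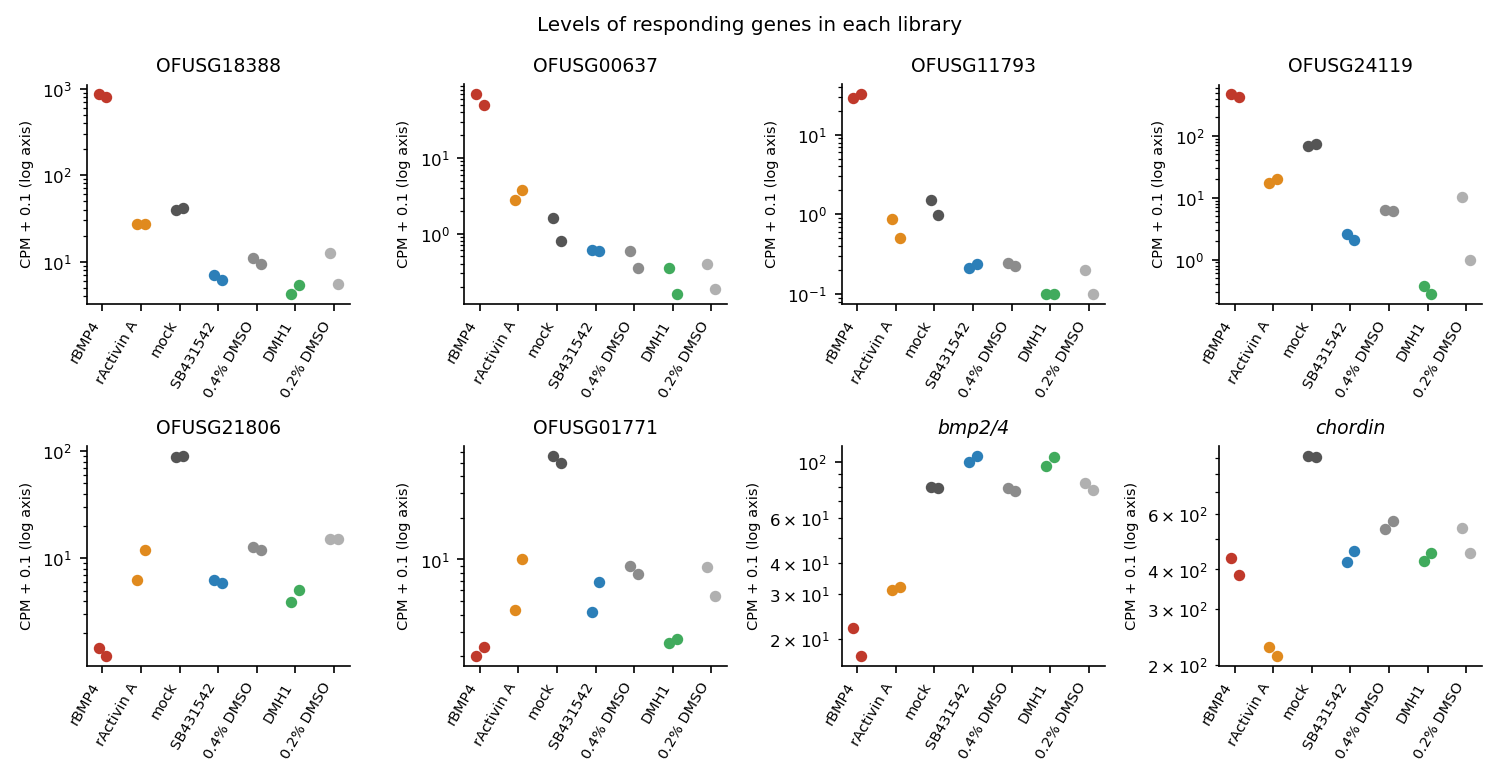
Each panel is a gene and each point a library, with CPM plus 0.1 on a log axis and the 7 conditions along the horizontal axis. OFUSG18388, OFUSG00637, OFUSG11793 and OFUSG24119 are highest in rBMP4, and OFUSG21806, OFUSG01771 and *chordin* are highest in mock, whereas *bmp2/4* has like levels in mock and DMSO.

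The higher and lower genes differed in which of the 2 groups departed from the other libraries. Both rBMP4 libraries were above all other 12 for 120 of the 169 higher genes (71%), a pattern seen in 4.32% of all genes tested. They were below all other 12 for 21 of the 135 lower genes (15.6%), against 2.35% of all genes tested. In contrast, both mock libraries were above all other 12 for 98 of the 135 lower genes (72.6%, and 6.49% of all genes tested), and below all other 12 for 4 of the 169 higher genes (2.37%, and 3.47% of all genes tested). The genes were chosen on rBMP4 and mock, so these counts describe the other 10 libraries and carry no test.

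Summed over genes, the 169 higher genes held 15377 and 14378 CPM after rBMP4, against 4536 and 4579 CPM in mock. They held 9683 and 9819 CPM after rActivin A, which itself changed 17.7% of all genes tested against the same mock libraries, and 1926 to 3076 CPM in the 8 inhibitor and DMSO libraries, so mock lay above the DMSO controls. The 135 lower genes held 3713 and 3668 CPM after rBMP4, against 10308 and 9532 CPM in mock. All other 10 libraries lay between 3621 and 5135 CPM, much nearer to rBMP4 than to mock. By group medians, the lower genes had 7.43 CPM after rBMP4 and 25.3 CPM in mock, beside 7.50 CPM after rActivin A, 5.91 CPM after SB431542, 8.33 CPM after DMH1, 8.52 CPM in 0.4% DMSO and 7.90 CPM in 0.2% DMSO.

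**Figure D3:**
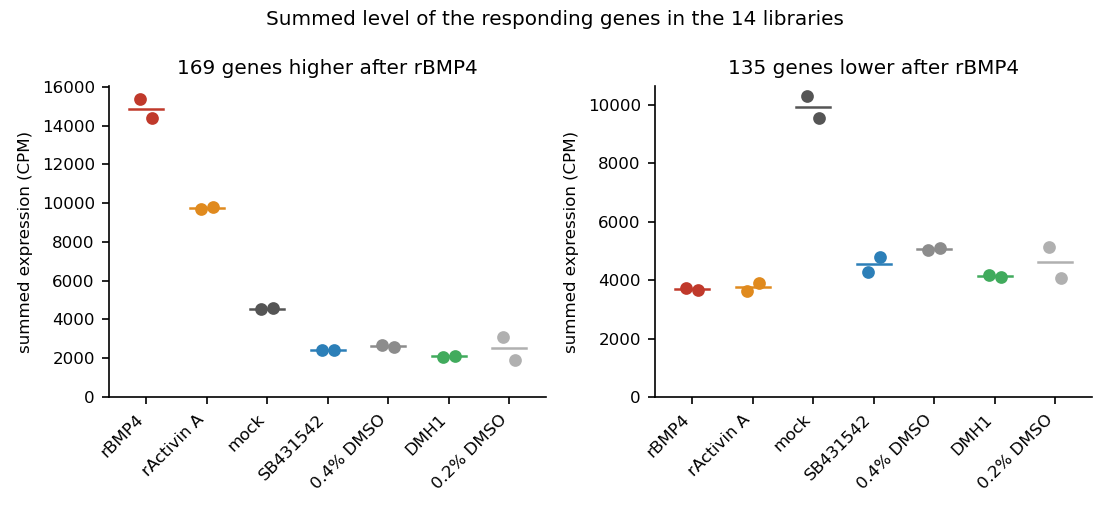
Summed CPM of the 169 higher genes (left) and the 135 lower genes (right) in each of the 14 libraries, with a point per library and a line at the mean of each condition. For the higher genes rBMP4 stands apart at 15377 and 14378 CPM, and for the lower genes mock stands apart at 10308 and 9532 CPM.

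Set against the DMSO controls alone, both groups departed in both sets of genes. For the higher genes, rBMP4 was above all 4 DMSO libraries in 159 of 169 (94.1%, and 24.4% of all genes tested). For the lower genes, rBMP4 was below all 4 DMSO libraries in 55 of 135 (40.7%, and 21.2% of all genes tested), within their range in 37 (27.4%, and 31.9% of all genes tested) and above them in 21 (15.6%). Mock was above all 4 DMSO libraries for 108 of the 135 lower genes (80%, and 26% of all genes tested) and for 90 of the 169 higher genes (53.3%). The 0.2% DMSO embryos were treated over the same hours as mock, and in them the 135 lower genes summed to 5135 and 4077 CPM, near the 5026 and 5085 CPM of the 0.4% DMSO embryos with their longer exposure. The solvent and any other difference between the mock and DMSO embryos cannot be told apart. In whole embryos, fewer cells expressing a gene and less of its RNA per cell cannot be told apart either.

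The response was also looked for under the Activin/Nodal inhibitor, in libraries that share no sample with rBMP4 or mock. Both sets of calls came from the same fit of 10 libraries, however, so the estimated spread of each gene was common to both. A gene with a low spread is called more easily in both comparisons, so the calls are not independent. Of the 304 genes, 33 (10.9%) were also called between SB431542 and 0.4% DMSO, against 0.626% of all genes tested, and they made up 25.8% of the genes called after SB431542. The direction under SB431542 was mostly down for both sets. Of the higher genes, 13 were lower and 4 higher after SB431542, and of the lower genes, 15 were lower and 1 was higher. Of all genes tested, 0.41% were lower and 0.215% higher. The median log2 fold change after SB431542 was nevertheless close to 0, at 0.06 for the higher genes and -0.13 for the lower genes, against 0.01 for all genes tested. The count of 33 was 19 in a fit of all 14 libraries and 17 with summed TPM values.

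OFUSG05354 moved in opposite directions under the agonist and this inhibitor. It had 672 and 601 CPM after rBMP4, against 70.5 and 67.7 CPM in mock (log2 fold change 3.21, SE 0.11, edgeR adjusted p = 3.97e-12). SB431542 embryos had 1.80 and 1.45 CPM, against 8.78 and 9.34 CPM in 0.4% DMSO (log2 fold change -2.48, edgeR adjusted p = 1.56e-07). OFUSG24119 did likewise, with 465 and 430 CPM after rBMP4, against 69.6 and 74.3 CPM in mock (log2 fold change 2.64, SE 0.11, edgeR adjusted p = 3.55e-11). It had 2.54 and 1.94 CPM after SB431542, against 6.16 and 6.04 CPM in 0.4% DMSO (log2 fold change -1.46, edgeR adjusted p = 1.14e-04). OFUSG17466 had 592 and 567 CPM after rBMP4, against 160 and 161 CPM in mock, and 19.1 and 18.3 CPM after SB431542, against 55.0 and 66.2 CPM in 0.4% DMSO. rActivin A embryos, with the same mock control, had 1142 and 1126 CPM of it. Its rBMP4 call was lost in the fit of all 14 libraries (adjusted p = 0.260), to whose spread the 0.2% DMSO replicates, with 84.3 and 3.69 CPM, also contribute.

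Other genes fell under both treatments. OFUSG18814 had 9.86 and 9.49 CPM after rBMP4, against 76.6 and 71.0 CPM in mock (log2 fold change -2.93, SE 0.14, edgeR adjusted p = 3.64e-10). It had 2.59 and 2.53 CPM after SB431542, against 30.3 and 37.8 CPM in 0.4% DMSO (log2 fold change -3.72, edgeR adjusted p = 2.78e-10). OFUSG26269 had 7.03 and 5.93 CPM after rBMP4, against 66.0 and 55.3 CPM in mock, and 5.07 and 4.11 CPM after SB431542, against 25.7 and 22 CPM in 0.4% DMSO. A rise under both was seen for OFUSG08948, with 8.67 and 7.64 CPM after rBMP4, against 1.21 and 1.14 CPM in mock, and 1.86 and 2.49 CPM after SB431542, against 0.44 and 0.38 CPM in 0.4% DMSO.

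**Figure D4:**
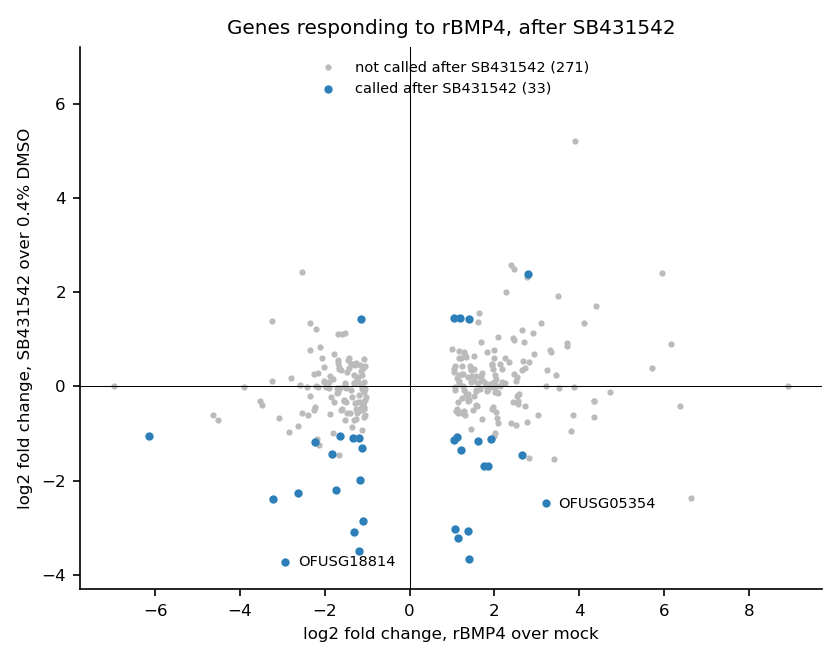
Each point is 1 of the 304 genes called between rBMP4 and mock, with the log2 fold change of rBMP4 over mock on the horizontal axis and that of SB431542 over 0.4% DMSO on the vertical axis. The 33 genes also called after SB431542 are blue, of which 13 higher and 15 lower genes lie below 0 on the vertical axis.

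Under the BMP receptor inhibitor the responding genes did not stand out in the fit of the 4 DMH1 and 0.2% DMSO libraries. Of the 278 responding genes tested there, 33 (11.9%) were called at a log2 fold change of at least 0.5, against 11.5% of all genes tested. Of the higher genes, 10 were higher and 5 lower after DMH1, and of the lower genes, 7 were higher and 11 lower. Of all genes tested, 5.25% were higher and 6.3% lower. A fit of all 14 libraries, whose spread also draws on rBMP4 and mock, gave 89 of 304 (29.3%), against 19.2% of all genes tested. It was 88 (28.9%, and 19.2% of all genes tested) without 0.2% DMSO replicate 1 and 112 (36.8%, and 17.5% of all genes tested) without replicate 2. The directions depended on these uneven libraries. With all 14 libraries, 17 of the higher genes were higher and 31 lower after DMH1. Without replicate 1 more of them were higher (32) than lower (23), and without replicate 2 the counts were 12 higher and 48 lower. Of the lower genes, 12 were higher and 29 lower after DMH1 with all 14 libraries, 18 and 15 without replicate 1, and 11 and 41 without replicate 2.

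The values of OFUSG24119 and OFUSG05354 after DMH1 also depended on these libraries. OFUSG24119 had 0.28 and 0.18 CPM after DMH1, against 10.2 and 0.89 CPM in 0.2% DMSO. Its log2 fold change after DMH1 was -1.95 without 0.2% DMSO replicate 1 and -5.46 without replicate 2. OFUSG05354 had 0.66 and 0.69 CPM after DMH1, against 18.5 and 0.25 CPM in 0.2% DMSO, and its direction turned, with a log2 fold change of 1.35 without replicate 1 and -4.80 without replicate 2. OFUSG20330, by contrast, had like levels in both 0.2% DMSO replicates. It had 401 and 414 CPM after rBMP4, against 95.1 and 106 CPM in mock (log2 fold change 2.02, SE 0.14, edgeR adjusted p = 2.27e-08). It had 16.3 and 14.1 CPM after DMH1, against 28.6 and 28.2 CPM in 0.2% DMSO (log2 fold change -0.92, edgeR adjusted p = 0.0174).

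Some genes rose after both the ligand and the inhibitor of its receptor. OFUSG10129 had 13.2 and 12.2 CPM after rBMP4, against 2.42 and 2.06 CPM in mock (log2 fold change 2.50, SE 0.26, edgeR adjusted p = 6.78e-06). It had 14 and 14.2 CPM after DMH1, against 3.41 and 3.10 CPM in 0.2% DMSO (log2 fold change 2.10, edgeR adjusted p = 8.12e-03). OFUSG18529 had 15.2 and 22 CPM after rBMP4, against 2.77 and 2.67 CPM in mock, and 8.52 and 9.26 CPM after DMH1, against 1.26 and 0.68 CPM in 0.2% DMSO. The difference between the 2 effects was 0.42 on the log2 scale for OFUSG10129 and -0.40 for OFUSG18529 (edgeR adjusted p = 0.452 and 0.622). OFUSG21806 was also lower after DMH1, with 3.86 and 4.98 CPM against 15.2 and 15.1 CPM in 0.2% DMSO (log2 fold change -1.79, edgeR adjusted p = 0.0104), and there the effect of rBMP4 was lower by -4.33 (edgeR adjusted p = 8.93e-07). Over all genes, the effects of rBMP4 and DMH1 differed for 1097, or 5.08% of those tested in the fit of 14 libraries. Among the 6 pathway genes the difference was -2.31 for *bmp2/4* and 1.19 for *bmpr2* (edgeR adjusted p = 3.31e-07 and 1.06e-04). It was smaller than 1 on the log2 scale for *chordin*, at -0.93, and *smad1/5/8*, at 0.52 (edgeR adjusted p = 4.94e-04 and 0.0236).

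Counted per transcript, the response was smaller, with 170 of 23432 transcripts called (0.726%), 92 higher and 78 lower, from 166 genes. Of these transcripts, 161 belonged to called genes and all moved in the direction of their gene, while 9 belonged to genes that were not called. A called transcript was found for 157 of the 304 genes. Of the other 147, 123 have a single transcript, whose counts are the same in both fits. The fits differ in their common biological coefficient of variation, 0.271 over transcripts and 0.113 over genes. They also differ in the prior degrees of freedom, the weight given to the spread of other features, at 3.46 and 12. For *bmp2/4*, which has a single transcript, the SE was 0.12 in both fits, but the edgeR p was 7.59e-08 per transcript and 6.90e-12 per gene. Which of these differences removed the calls was not tested. The transcript count fell to between 95 and 108 when 1 of the 4 libraries was left out and was 275 with DESeq2. The called genes were not richer in isoforms than others, since 14.8% of the higher and 15.6% of the lower genes have more than 1 transcript, against 15.9% of all genes tested. Only 4 genes had several called transcripts.

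Isoform usage, the split of a gene's counts over its transcripts, changed for 4 of 2349 genes with several transcripts tested (0.17%). Of these, OFUSG17661 alone was also a called gene. The count was 6, with all 4 kept, when transcripts under 10% of a gene's counts were left out. It was 3, with 1 of the 4 kept, in a fit of the rBMP4 and mock libraries alone, and 0 with a replicate block. OFUSG17661 had 718 and 670 CPM after rBMP4, against 284 and 280 CPM in mock (log2 fold change 1.30, SE 0.09, edgeR adjusted p = 5.49e-08). The call was lost in the fit of all 14 libraries (edgeR adjusted p = 0.0667). Its second transcript took 93.8% and 92.1% of the counts after rBMP4, against 83.7% and 80.1% in mock. This share was 96.8% and 94.9% after rActivin A and between 80.1% and 90.3% in the 8 inhibitor and DMSO libraries. In counts, the first transcript had 788 and 1204 after rBMP4, against 1188 and 1273 in mock, and the second 11890 and 14056, against 6094 and 5113.

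The other 3 genes were not called themselves, and one of them, OFUSG20586, exchanged one transcript for the other. In OFUSG20586 the first transcript held 31 and 42 counts after rBMP4 and the second next to none, whereas in mock the second held 54 and 43 counts and the first next to none. All other 10 libraries used the first transcript alone, so mock was the exception. In OFUSG23809 the first transcript held 0 counts after rBMP4, against 69.1 and 80.1 in mock, at least 41.6-fold lower over both libraries. The second transcript was the major one in both groups, with 100% of the counts after rBMP4, against 75.7% and 66.2% in mock. The first held 0 counts in 0.2% DMSO replicate 2 also and 9.61 to 270 in the other libraries. In OFUSG12820 the second transcript took 55% and 45% of the counts after rBMP4 and 0% in mock, and between 0% and 73.2% in the others, with 31.8% and 73.2% in the DMH1 replicates.

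A transcript with counts in the rBMP4 libraries alone was found in OFUSG26877, which was a called gene (log2 fold change 3.81, edgeR adjusted p = 5.51e-04) but missed the isoform test (adjusted p = 0.0622) and is named after its values were seen. Its first transcript, of 3064 bases, held 123 and 146 counts after rBMP4 and under 0.5 in each of the other 12 libraries. Its second held 0 counts after rBMP4, 13 and 10 in mock, and up to 44 elsewhere. The 44 counts are 0.87 CPM in a DMH1 library, against 0.51 and 0.44 CPM in mock. The same measure asks for at least 10 counts in both replicates of a condition and under 0.5 in every other library. It found 5 transcripts only after rBMP4, 2 only in mock, 4 only after DMH1 and 2 only after SB431542. It found 1 each only after rActivin A and in 0.4% DMSO, and 0 in 0.2% DMSO. The measure is not scaled for depth, so these numbers do not compare conditions. The DMH1 libraries were the deepest, with 59915591 and 51003928 estimated counts, against 16954845 and 9416563 after rActivin A.

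Large swings of isoform shares also occurred between replicates. Of the genes tested for isoform usage, 121 (5.16%) had a transcript whose share differed by at least 50 percentage points between the 2 rBMP4 libraries, and 97 (4.13%) between the 2 mock libraries. Between a single rBMP4 and a single mock library the count was 104 to 135. In OFUSG03002, whose second transcript was called lower, with 0 against 41 counts over both libraries, that transcript took 100% of the counts in DMH1 replicate 1 and 0% in replicate 2. None of the 4 calls on isoform usage held when 1 of the 4 libraries was left out.

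**Figure D5:**
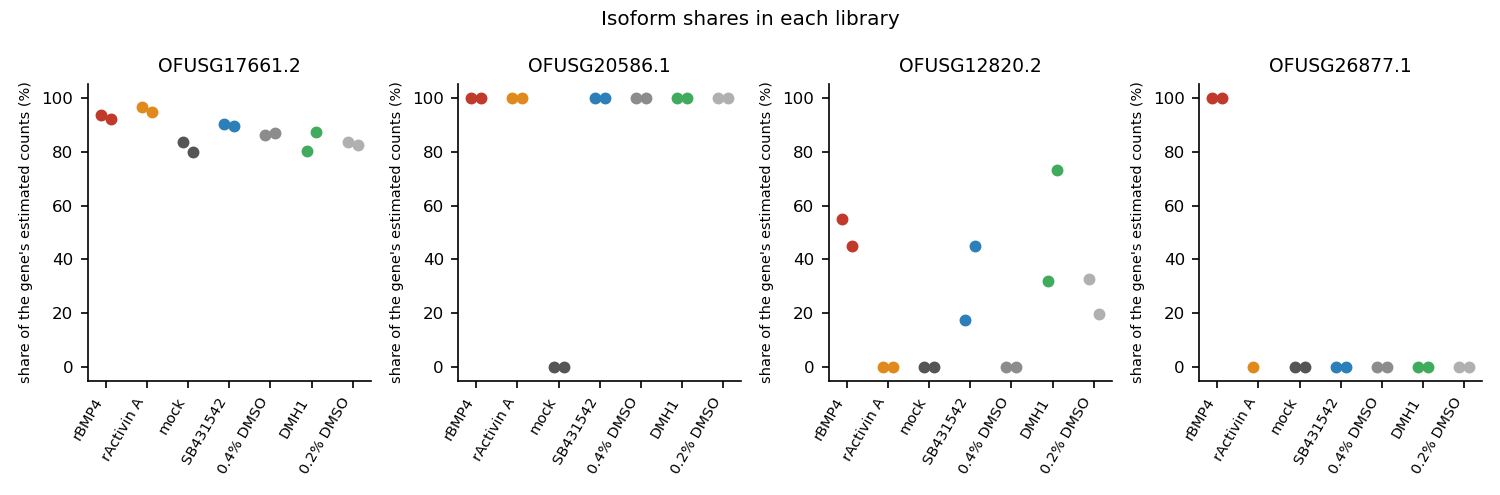
Share of a gene's estimated counts, in percent, taken by 1 of its transcripts in each library (points) of the 7 conditions. The second transcript of OFUSG17661 is raised in rBMP4 and rActivin A, the first of OFUSG20586 is missing from mock only, the second of OFUSG12820 differs between replicates of several conditions, and the first of OFUSG26877 is found in rBMP4 only; 1 rActivin A library has no count for that gene and no point.

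Responding genes lay next to each other in the order of identifiers more often than genes at large. Of the 304, 44 (14.5%) had a called gene at the next or previous identifier number, against 2.37% of all genes tested, and 63 (20.7%) within 3 numbers, against 6.38%. The 44 genes formed 20 runs, of which 13 were all higher, 4 all lower and 3 mixed. The longest run, OFUSG08556 to OFUSG08559, held 4 lower genes, with 0.75 to 6.97 CPM after rBMP4 and 2.50 to 19.0 CPM in mock, and 2 of its 4 calls held without each library. OFUSG15420 to OFUSG15422 were all higher, with 2.15 to 7.93 CPM after rBMP4, against 0.35 to 3.51 CPM in mock, but none of these 3 calls held without each library.

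The run of OFUSG26267 to OFUSG26269 was mixed. OFUSG26267 had 568 and 478 CPM after rBMP4, against 140 and 128 CPM in mock (log2 fold change 1.97, SE 0.11, edgeR adjusted p = 1.77e-09). OFUSG26268 had 201 and 176 CPM, against 49.4 and 41.6 CPM in mock (log2 fold change 2.05, SE 0.13, edgeR adjusted p = 6.02e-09). The neighbouring OFUSG26269 fell, with the values given above. Whether consecutive identifiers are neighbours on a chromosome was not tested, and neighbouring genes of similar sequence could share reads, which would make their values less certain.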

How the data were processed

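The libraries were strand-specific, paired-end mRNA libraries. The authors trimmed reads with FastP and assigned them to annotated transcripts with Kallisto (version 0.46.2 in the submitters' processing notes), and deposited estimated counts and TPM per transcript for each library. A read that matches several isoforms is shared out among them in this estimate. TPM values deposited by the authors were used in 1 alternative only. Whether Kallisto was run with a strand setting was not stated. The submitters' notes also name DESeq2 (version 1.26.0).

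The 31977 transcripts of 27040 genes shared by all files were kept. Estimated counts were summed per gene (the identifier before the dot) and rounded. With edgeR (version 4.0.16, R version 4.3.3), filterByExpr and TMM, the quasi-likelihood test was fitted to the 10 libraries of rBMP4, mock, rActivin A, SB431542 and 0.4% DMSO (5 residual degrees of freedom), and separately to the 4 DMH1 and 0.2% DMSO libraries. The difference between the effects of rBMP4 and DMH1 came from all 14 libraries. Isoform usage was tested with diffSpliceDGE. With 2 libraries against 2, an exact permutation test cannot go below p = 0.333. The steps were tested on simulated data.

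Named genes were chosen by rule. They were the 6 pathway genes, the 10 largest changes in each direction and the 3 called genes with the highest mean CPM in each. The rule also took the leading isoform changes, up to 3 genes for each pair of directions shared with DMH1 or SB431542, and the 3 longest runs of identifiers. Not all of these genes are described above, and others are marked in the text. The genes, lists and comparisons were chosen with earlier results of these data known. Alternatives were DESeq2 (version 1.42.0) and its size factors, other filters, fold minimums and sets of libraries, a replicate block, summed TPM, thinning to the smallest library, and leaving out single libraries.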

Additional observations from a re-analysis of the deposited data

How the results depend on the processing

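The number of genes called (304) was 188 with summed TPM, 540 with no fold minimum and 491 with a minimum of 0.5 on the log2 scale, of which 246 and 228 were higher, so that lower genes then outnumbered higher ones. It was 294 with DESeq2, 451 in a fit of the 4 rBMP4 and mock libraries, 223 with all 14, and between 205 and 400 when single libraries were left out. With the replicate number as a block it was 283, 280 of them among the 304. The replicate numbers give no shared batch, and the deviations of rBMP4 and mock libraries of the same number from their group means correlated at 0.133 over genes, so the block was taken as an alternative only.

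The number of transcripts called (170) was 275 with DESeq2, 298 in the fit of 4 libraries, 136 with the block, and 95 to 108 without 1 of the 4 libraries. The 4 genes with changed isoform usage became 0 with the block (smallest edgeR adjusted p 0.0711, with 154 genes at an unadjusted p under 0.05), and 0 to 2 without 1 of the 4 libraries. In the 2 fits with 0 calls, without mock replicate 1 and without rBMP4 replicate 2, 148 and 170 genes had an unadjusted p under 0.05. The 33 genes also called after SB431542 were 19 with all 14 libraries, 17 with summed TPM, 115 with no fold minimum and 101 with a minimum of 0.5, and between 26 and 40 without single libraries. The 33 genes also called after DMH1 were 89 with all 14 libraries, and 88 to 112 when a 0.2% DMSO library was left out. These last fits, the alternatives for SB431542 and the scalings of the positions among libraries were chosen after seeing the data. For rBMP4 over mock, no log2 fold change of a named gene or transcript changed sign with a call, and 131 of 1185 values lost the call. After DMH1, OFUSG05354 did change sign, with a log2 fold change of -3.78 with all 14 libraries and 1.35 without 0.2% DMSO replicate 1 (edgeR adjusted p = 2.92e-03 and 0.0465). The cause of these differences was not tested.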
